A study of Mus musculus with 21 samples.

Results

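Wild-type (WT) fibroblasts grown from healing skin wounds were compared with WT mouse embryonic fibroblasts (MEF) in a series that examined the transcription factor Prrx1. The question was how skin wound fibroblasts and embryonic fibroblasts differ before Prrx1 is altered. The comparison used 6 of the 21 RNA-seq cultures, 3 WT wound-healing fibroblast cultures and 3 WT MEF cultures, which were chosen by their labels and not by any measured value. It covered the 24447 genes that are listed in both deposited count tables. Both groups came from C57BL/6 mice with an intact Prrx1 gene (WT_PRRX1). The wound-healing fibroblasts were taken from dorsal wounds 10 days after wounding, in mice whose age is not given in the labels, and the MEF from embryos of gestational days 10 to 13. Every culture, in both groups, had been immortalised with HPV E6/E, as the labels write it, oncogenes of the human papillomavirus for which the study's list of plasmids names an E6E7 vector, and was grown in DMEM with 10% serum to 80 to 90% confluence. Both groups are therefore models of immortalised cells in culture. A non-targeting guide (SgNS) is named as the control of the CRISPR-edited cells, and whether all 6 WT cultures carried it is not stated. The labels do not say how many animals, embryos or lines stand behind the 3 cultures of a group, so the p-values measure the spread between these cultures, which may be technical. Age, tissue of origin, isolation, cell line and deposited table all change together between the groups and cannot be told apart. In bulk RNA, fewer cells of a kind and less RNA per cell cannot be told apart either.

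Fibroblasts are mesenchymal cells that build and remodel the collagen-rich matrix of connective tissue, and on injury many become contractile myofibroblasts that close the wound. They keep a memory of their position along the body in the Hox genes, homeodomain transcription factors whose clusters are switched on from one end to the other along the head-to-tail and limb axes. Fibroblasts of skin, of the embryo and of tumours are known to share a core of mesenchymal factors, among them Prrx1 and its close relative Prrx2, while differing in matrix, signalling and inflammatory genes.

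The libraries held between 73727411 and 91588690 counts per culture. Values are given as CPM, a gene's counts relative to the scaled size of its library, and a difference as a log2 fold change of wound-healing fibroblasts against MEF with its standard error (SE). A gene was called at a Benjamini-Hochberg adjusted p under 0.05 in edgeR's quasi-likelihood test, and a second rule also asked for at least a 2-fold change. Across all tested genes log2 CPM correlated at 0.9979 or more among the wound cultures, at 0.9911 or more among the MEF cultures and at 0.9013 to 0.9165 between the groups. MEF replicates varied more, with 94 of 12227 genes differing over 4-fold between MEF cultures and 13 between wound cultures. One feature of the libraries moved with the groups. Among the fifth of genes with the shortest transcripts (up to 1720 bases) the median log2 fold change was 0.59, and it fell over 5 classes of equal size to −0.47 among the longest (4868 bases or more). The fifth of lowest GC content (up to 44.5%) had a median of 0.78 and the fifth of highest GC content (56.2% or more) one of −0.44. The edited cultures showed the same order with smaller values, 0.35 to −0.24 for length and 0.43 to −0.23 for GC content. What produced these trends was not tested. The lists of fibroblast genes below are also given after a smooth trend of length and GC content was removed from every culture ("trends removed"), a step added after the data had been seen.

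**Figure D1:**
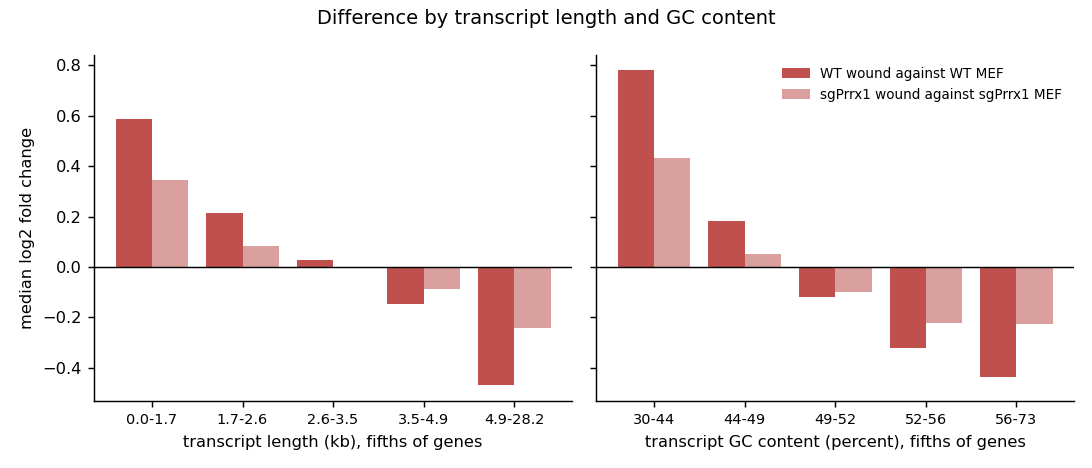
Median log2 fold change of wound-healing fibroblasts against MEF (y axis) in 5 equal classes of the tested genes by transcript length (left, kilobases) and GC content (right, percent), for WT cultures (dark bars) and sgPrrx1 cultures (light bars). In WT cultures the medians fall from 0.59 to −0.47 with length and from 0.78 to −0.44 with GC content.

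The 2 kinds of fibroblast differed in most of the genes they express. Of 13892 genes tested, 5680 (40.9%) were higher in wound-healing fibroblasts and 5399 (38.9%) were lower, 79.8% in all. At least 2-fold differences were found for 3045 genes that were higher (21.9%) and 2375 that were lower (17.1%). Differences of at least 32-fold were found for 247 higher and 171 lower genes. The 3 wound cultures did not overlap the 3 MEF cultures in 11586 genes (83.4%). With trends removed, 14.5% of all genes were at least 2-fold higher and 13.6% at least 2-fold lower. These shares are the background for the counts of each gene list, which are given below as a description. The median log2 fold change of all tested genes was 0.04.

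Prrx1 itself differed little between the groups. This homeodomain factor of limb and craniofacial mesenchyme, the gene the study is built on, stood at 145, 141 and 150 CPM in the wound cultures and at 185, 160.0 and 176 CPM in the MEF cultures. Every wound culture lay below every MEF culture, with a log2 fold change of −0.26 (SE 0.065, adjusted p = 0.00877), which became −0.30 with trends removed. Its relative Prrx2 fell much further, to 21.4, 21.8 and 20.2 CPM from 100.5, 103 and 102 CPM, a log2 fold change of −2.27 (SE 0.047, adjusted p = 2.95e-07). The groups did not overlap for either gene. Across the 7 groups of the series, on a scaling over all 21 cultures that moves WT means by at most 4.19%, Prrx2 stood between 16.5 and 21.3 CPM in both groups of wound cultures. It stood between 72.3 and 119 CPM in the 5 other groups, which include mammary tumour fibroblasts (MMTV-CAF).

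Of the 20 transcription factors that the study names as core regulators of fibroblasts, 7 were higher, 9 were lower and 4 did not pass the test, and 2 and 3 changed at least 2-fold (10% and 15%, and 5 and 3 genes with trends removed). The study chose the list on fibroblasts of these same kinds, so its direction is not independent evidence. Hes1, a repressor that answers to Notch, was higher at 42.1, 39.5 and 39.9 CPM against 13.4, 11.8 and 11.6 CPM (log2 fold change 1.72, adjusted p = 1.54e-06). Nr4a1, an immediate-early nuclear receptor, was also higher (62.5 ± 2.30 against 27.0 ± 0.284 CPM, mean ± SD, n = 3 throughout). The 2 Krüppel-like factors of the list were lower in the wound cultures. Klf4 stood at 28.8 ± 1.40 against 117 ± 13.3 CPM and Klf13 at 18.4 ± 1.02 against 82.7 ± 0.465 CPM, with log2 fold changes of −2.02 and −2.17. The AP-1 and TEAD partners other than Jund moved by less than 2-fold. Junb stood at 0.70, Fosl2 at −0.34, Tead1 at −0.86 and Tead4 at −0.78 on the log2 scale. With trends removed Fosl2 turned to 0.42 and Tead4 did not pass the test (−0.21, adjusted p = 0.0577). Foxp1 (0.12, adjusted p = 0.0735), Cebpb (adjusted p = 0.585) and Jund (adjusted p = 0.0523) did not pass the test. For Jund and Cebpb the MEF cultures disagreed, at 3.52, 43.1 and 2.96 CPM for Jund and 39.8, 2.81 and 52.7 CPM for Cebpb. Without MEF replicate 2 Jund was called (4.87, adjusted p = 5.29e-06), and without MEF replicate 1 Foxp1 was (0.16, adjusted p = 0.0261). Some but not all other settings also called Jund, among them DESeq2's test (2.49, adjusted p = 0.0378) and trends removed (3.14, adjusted p = 0.0281). Foxp1 was also called with trends removed (0.26, adjusted p = 0.0112).

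Of 39 Hox genes listed 32 were tested, and 19 were higher, 8 were lower and 5 did not pass the test, so that their share of calls was close to the 79.8% of all genes. In the wound cultures 17 were at least 2-fold higher (53.1%, against 21.9% of all genes) and 4 were at least 2-fold lower (12.5%), or 18 and 6 with trends removed, with a median log2 fold change of 1.37 that stayed at 1.38 with trends removed. Among Hox genes with a mean of at least 1 CPM in a group, Hoxa10, Hoxc10 and Hoxa9, all of the posterior part of their clusters, were the furthest apart. Hoxa10 was at 42.9, 40.8 and 43.6 CPM in the wound cultures and at 0.964, 0.416 and 0.695 CPM in the MEF cultures, a log2 fold change of 5.94 (SE 0.23, adjusted p = 1.27e-06). Hoxc10 stood at 51.2, 52.0 and 49.3 CPM against 0.978, 0.914 and 1.81 CPM (5.34, SE 0.25, adjusted p = 2.35e-06). Hoxa9 stood at 28.8, 24.0 and 25.2 CPM against 0.769, 1.05 and 1.28 CPM (4.64, SE 0.18, adjusted p = 1.25e-06). None of these 3 genes reached 2 CPM in any MEF culture. Hoxc13 (4.47 ± 0.268 against 0.576 ± 0.217 CPM) and Hoxc9 (19.96 ± 0.510 against 4.17 ± 0.322 CPM) were higher by the same test.

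Within the B cluster all 8 tested genes from Hoxb2 to Hoxb9 were higher in the wound cultures, with log2 fold changes between 0.92 (Hoxb5) and 1.69 (Hoxb3). Hoxb9 stood at 92.2, 88.3 and 91.2 CPM against 29.4, 29.3 and 29.7 CPM. In the A cluster Hoxa2 was higher (1.46), but the genes after it ran the other way. Hoxa3, Hoxa4, Hoxa5, Hoxa6 and Hoxa7 were all lower in the wound cultures, with log2 fold changes between −1.28 (Hoxa7) and −0.51 (Hoxa6), and Hoxa5 stood at 5.62 ± 0.281 against 10.7 ± 0.471 CPM. In the C cluster Hoxc8 fell from 62.7, 54.1 and 46.3 CPM in MEF to 12.4, 12.2 and 13.0 CPM in the wound cultures (−2.12, SE 0.11, adjusted p = 4.19e-06). The order of the groups changed more than once along the C cluster, since Hoxc4 was higher (1.85), Hoxc5 did not pass the test (but was lower without MEF replicate 1, −0.39), Hoxc6 (−0.33) and Hoxc8 were lower, and Hoxc9 and Hoxc10 were higher. Of the 4 tested genes of the D cluster Hoxd4 was higher (1.61), Hoxd3 and Hoxd9 did not pass the test, and Hoxd8 (22.9 ± 0.594 against 6.90 ± 6.70 CPM) had unequal MEF replicates (3.26, 2.81 and 14.6 CPM). With trends removed Hoxd3 was called higher (0.77, adjusted p = 0.027). The call of Hoxd8 was lost without any 1 culture other than MEF replicate 3 (1.34 to 1.73, adjusted p from 0.0732 to 0.0813), and so was that of Hoxa6 (−0.58 to −0.34, adjusted p from 0.0535 to 0.116). Hoxb13 was called lower, but not without wound replicate 1, wound replicate 3 or MEF replicate 3 (−1.68 to −1.47, adjusted p from 0.0517 to 0.0629). Hoxc12 was not called, but was without wound replicate 3 or MEF replicate 3 (−1.49 and −1.25) and with trends removed (−1.21). The terminal genes Hoxa11, Hoxa13, Hoxb13 and Hoxc12 were at or under 0.375 CPM in all 6 cultures.

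**Figure D2:**
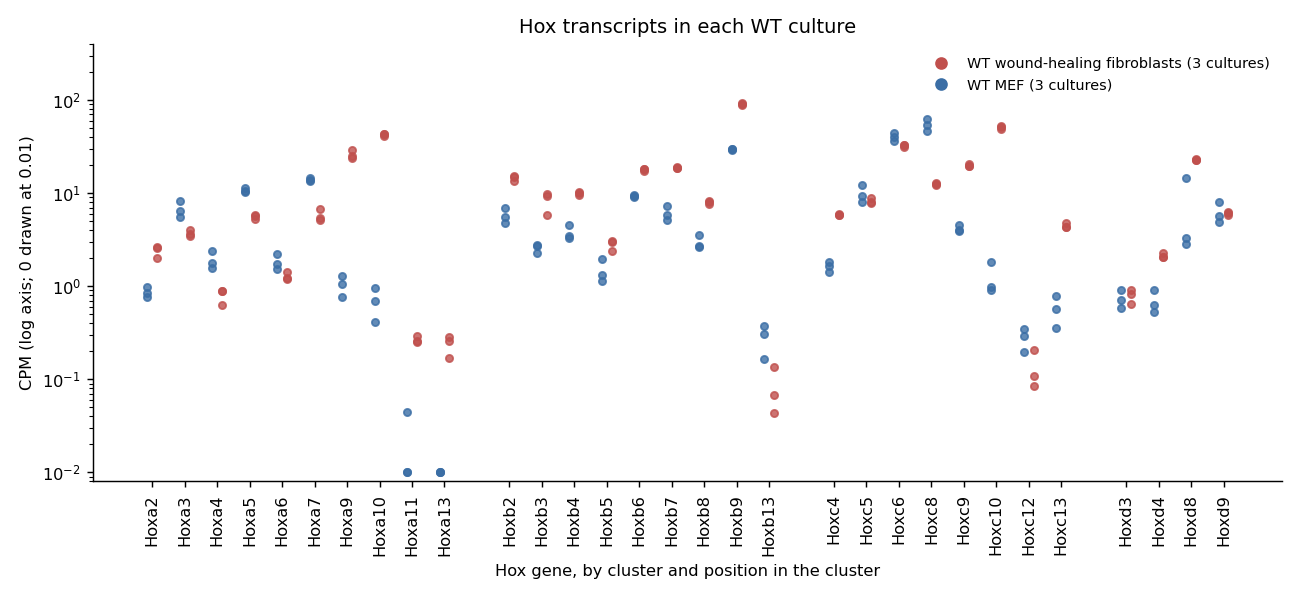
CPM (y axis, log scale, with 0 drawn at 0.01) of tested Hox genes (x axis, by cluster and position), with 1 point per culture for WT wound-healing fibroblasts (red) and WT MEF (blue). For Hoxa9, Hoxa10 and Hoxc10 every wound culture stands above 20 CPM and every MEF culture below 2 CPM, and in the A cluster Hoxa2 and Hoxa9 to Hoxa13 stand higher in wound cultures while Hoxa3 to Hoxa7 stand lower.

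Other MEF lines of the series did not share the low posterior Hox levels in full. In Prrx1 mutant MEF, embryonic fibroblasts of 129S-Prrx1tm1Jfm/Mmmh mice that the labels call KI_PRRX1, Hoxa10 stood at 23.5 ± 10.4 CPM and Hoxa9 at 22.04 ± 11.6 CPM, while Hoxc10 stood at 0.889 ± 0.136 CPM. In sgPrrx1 MEF all 3 were low (1.35, 1.73 and 0.883 CPM). Low Hoxa9 and Hoxa10 were therefore found in WT and sgPrrx1 MEF and not in mutant MEF.

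The patterning factors outside the Hox clusters were divided. Of 66 listed, 45 were tested, and 17 were at least 2-fold higher (37.8%) and 13 at least 2-fold lower (28.9%), or 20 and 12 with trends removed. Their median was −0.32 and became 0.32 with trends removed. Pax3, a factor of dermomyotome and neural crest, had no count in any MEF culture and stood at 2.697, 2.48 and 2.84 CPM in the wound cultures. Msx2, a target of BMP signalling in limb and skull mesenchyme, stood at 20.05, 20.1 and 19.9 CPM against 1.19, 0.706 and 0.861 CPM (4.45, SE 0.17, adjusted p = 1.18e-06), and Hand2, a limb and heart factor, at 3.85 ± 0.531 against 0.0544 ± 0.0495 CPM. En1, which marks a scar-forming lineage of dorsal dermal fibroblasts, was higher in the wound cultures (13.1, 12.9 and 11.1 against 2.75, 2.83 and 3.18 CPM, 2.08, adjusted p = 3.15e-06). Among the factors that were lower, Eya1, a partner of homeobox proteins, fell from 88.9, 77.4 and 81.5 CPM to 3.83, 3.95 and 4.28 CPM (−4.36, SE 0.080, adjusted p = 2.35e-07). Wt1, Osr1 and Osr2, factors of the mesothelium, lateral mesoderm and limb, were lower as well (−3.39, −2.42 and −2.10). The general mesenchymal factors Twist1 (36.0 ± 0.586 against 53.3 ± 0.745 CPM) and Twist2 (33.7 ± 0.872 against 43.7 ± 1.44 CPM) were lower by under 2-fold.

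Some genes were at a measurable level in one group and without a count in the other. There were 16 genes with at least 5 CPM in the wound cultures and no count in MEF, and 7 the other way round. Because a fold against 0 has no value, these are given as lower bounds against 3 counts over the whole group. Xirp2, an actin-binding protein known from striated muscle, stood at 86.8, 87.6 and 89.4 CPM in the wound cultures, at least 6872-fold higher than in MEF. Rxfp2, the receptor for the hormone INSL3, stood at 31.7, 35.5 and 35.0 CPM, at least 2661-fold higher, and the proteoglycan gene Spock3 at 26.0 ± 0.916 CPM, at least 2029-fold higher. Cthrc1, a secreted protein of injured vessels and activated fibroblasts, stood at 20.8, 21.2 and 20.6 CPM, at least 1629-fold higher. The 12 highest were ranked among called genes with groups that did not overlap and a mean of at least 5 CPM in the higher group. Genes with the symbol of a predicted gene were left out. The remaining genes of the 12 were Kcne4, Dlg2, Krt18, Tecrl, Gjb2, Prdm16, Adamts3 and Mab21l1. They stood at means between 6.30 and 18.0 CPM in the wound cultures, with no count in MEF.

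At the other end, Sim2, a bHLH-PAS transcription factor, stood at 31.3, 29.4 and 28.4 CPM in MEF and had no count in the wound cultures, at least 2587-fold lower there. Fxyd6, a regulator of the sodium pump, and Asb2, a ubiquitin ligase subunit, were without a count in wound cultures and stood at 15.8 ± 1.82 and 14.2 ± 0.478 CPM in MEF. Ephb2, a receptor for ephrin-B ligands, stood at 169, 171 and 136 CPM in MEF and 0.162, 0.392 and 0.274 CPM in wound cultures (−9.18, SE 0.25, adjusted p = 4.82e-07). Sv2c, Gbp2b, Psca, P2ry10b, Ldb2 and Tril made up the rest of the 12 lowest under the same rule, together with Pcdhga10 and Amd1. Pcdhga10 shares exons with its neighbours in the protocadherin cluster, and Amd1 has a near-identical copy and unequal MEF replicates (42.7, 57.9 and 9.25 CPM against 3 counts over the wound cultures, a ratio of 3000 with a counting interval of 1026 to 14550), so their counts are uncertain.

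Several of these genes differed among MEF lines. In Prrx1 mutant MEF, Mab21l1 stood at 9.86 CPM, above its WT wound level, and Sim2 at 0.0118 CPM. H19, the imprinted long RNA of fetal tissues, stood at 88.5, 82.8 and 76.7 CPM in WT MEF and at 0.379, 0.503 and 0.400 CPM in wound cultures (−7.60, SE 0.12, adjusted p = 1.43e-07). It stood at 109.7 ± 7.40 CPM in sgPrrx1 MEF but at 1.35 ± 0.524 CPM in mutant MEF, so a high H19 level was not a feature of all MEF groups. Xirp2 and Rxfp2, in contrast, stayed under 0.1 CPM in all 3 MEF groups and both MMTV-CAF groups and were found in both groups of wound cultures.

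**Figure D3:**
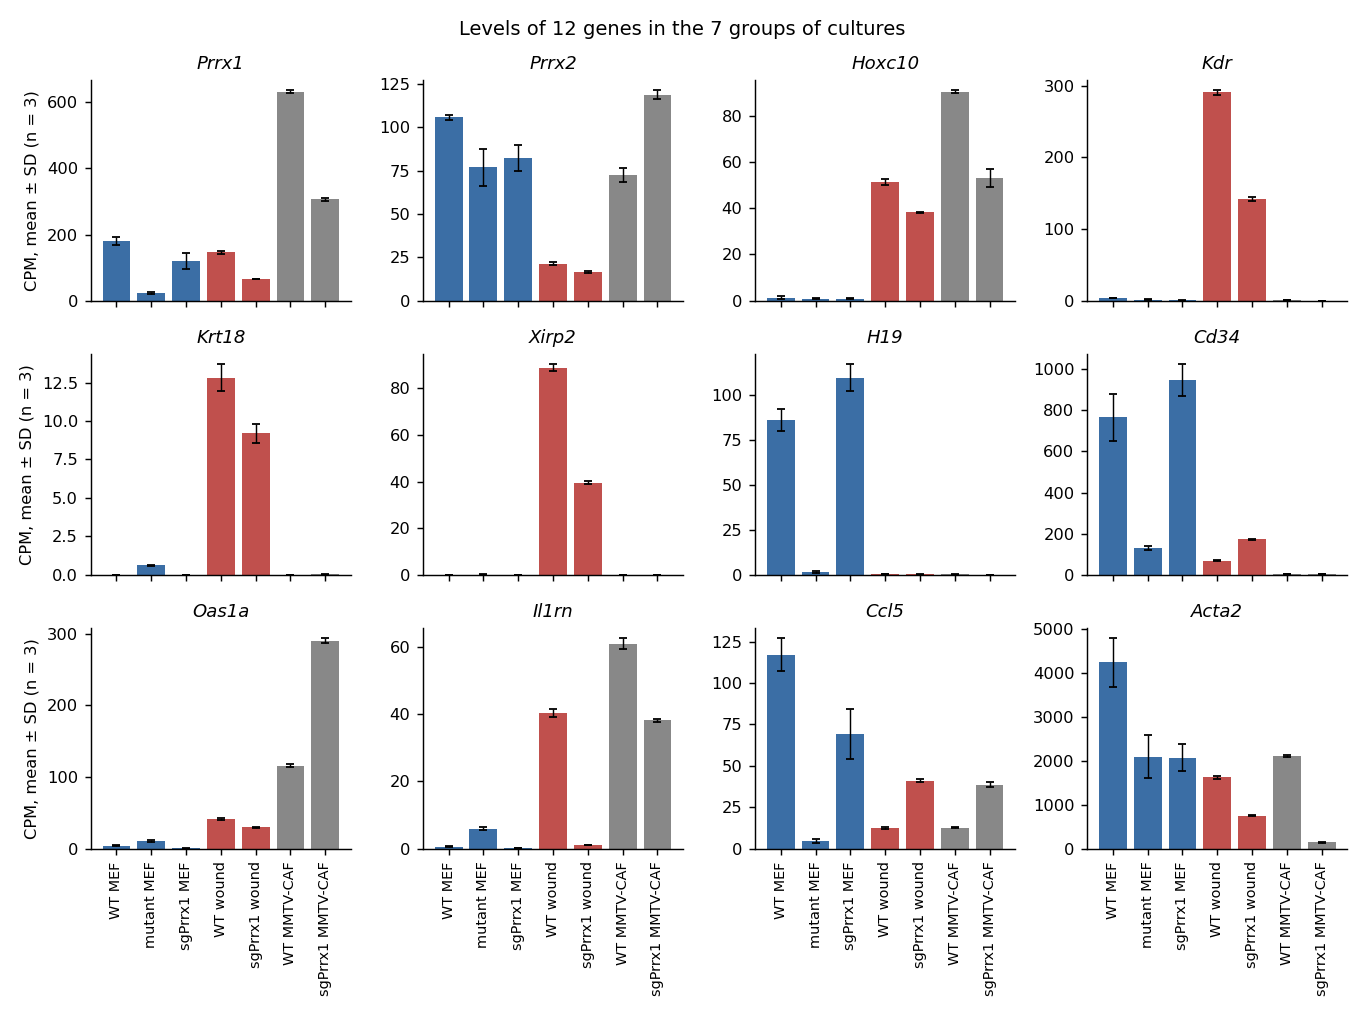
Mean CPM ± SD (y axis, n = 3 cultures per bar, scaled over all 21 cultures) of 12 genes in the 7 groups, with MEF in blue, wound-healing fibroblasts in red and MMTV-CAF in grey. Kdr, Krt18 and Xirp2 stand high in both wound groups alone, whereas Hoxc10 and Il1rn are also high in MMTV-CAF and H19 is low in mutant MEF.

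The collagens of the wound did not form one block. Of 43 collagen genes listed, 35 were tested, 13 were higher and 16 lower, and 8 and 11 passed the 2-fold rule. With trends removed those became 15 higher and 3 lower, so the balance of this family turned with that step. The list of fibrillar collagens and their processing went from 4 higher and 5 lower of 30 to 12 and 1, and that of the other interstitial collagens from 4 and 6 of 18 to 6 and 2. The genes of the major type I fibril were nearly level. Col1a1 stood at 3302, 3189 and 3329 CPM in the wound cultures and 2832, 2903 and 2986 CPM in MEF, a log2 fold change of 0.17 (SE 0.040, adjusted p = 0.0061) that became 1.36 with trends removed. Col1a2 stood at 1853 ± 45.4 against 2361 ± 18.8 CPM, a log2 fold change of −0.35 that turned to 0.61. Col3a1, the collagen III of young and elastic tissue, was lower at 501, 498 and 508 CPM against 1049, 1117 and 1323 CPM (−1.21, SE 0.087, adjusted p = 1.58e-05), and was at −0.44 with trends removed.

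Minor collagens and collagen enzymes moved further. Col5a3, a minor type V chain, stood at 14.1 ± 0.530 against 1.44 ± 0.510 CPM (3.28, and 4.55 with trends removed). Col7a1, which forms the anchoring fibrils beneath the epidermis, was higher at 18.1, 18.0 and 19.4 against 4.65, 4.35 and 5.03 CPM (1.98, adjusted p = 1.32e-06), and Col8a1, a vessel collagen, at 207, 206 and 210.2 against 60.5, 59.4 and 71.0 CPM (1.71, adjusted p = 2.13e-06). The procollagen N-proteinases Adamts2 (55.4 ± 0.684 against 20.2 ± 2.95 CPM) and Adamts3 (8.17 ± 0.237 CPM, no count in MEF) were higher. The crosslinking oxidases Loxl4 (−1.89) and Loxl1 (−1.33) were lower. Col6a3 (−1.49, but −0.20 with trends removed), Col17a1 (−2.24), Col27a1 (−1.48, but −0.06) and Col8a2 (−1.69) were lower.

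Basement membrane genes were mostly lower as counted, but not with trends removed. Of 22 tested, 12 were at least 2-fold lower (54.5%, against 17.1% of all genes) and 2 at least 2-fold higher, with a median of −1.22. With trends removed the counts became 5 and 5 and the median −0.17. Among the genes at least 2-fold lower under both were Smoc1 (−4.61), Smoc2 (−4.56), the laminin gene Lama4 (−3.42) and Col4a6 (−2.84). Smoc2, a secreted calcium-binding matrix protein, fell from 30.2, 30.7 and 27.7 CPM in MEF to 1.08, 1.19 and 1.47 CPM in wound cultures. Col4a4, a chain of kidney and lung type IV collagen, had no count in MEF and stood at 2.23 ± 0.144 CPM in wound cultures.

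Elastic fibre, proteoglycan and matricellular genes were 9 higher and 18 lower by at least 2-fold of 46 tested (19.6% and 39.1%), and 11 and 11 with trends removed. Mgp, an inhibitor of calcification, stood at 163, 171 and 151 CPM in the wound cultures and at 5.16, 5.26 and 5.24 CPM in MEF (4.95, SE 0.066, adjusted p = 8.63e-08). The microfibril gene Mfap5 (16.03 ± 0.146 against 0.638 ± 0.205 CPM), the fibulin Efemp1 (78.7 ± 3.42 against 6.28 ± 0.307 CPM) and Ccn5 (20.7 ± 0.228 against 1.72 ± 0.314 CPM) were higher too. Eln, the gene of tropoelastin, had no count in any wound culture and stood at 2.24, 1.704 and 1.59 CPM in MEF. Decorin (Dcn), a small proteoglycan that binds collagen fibrils, stood at 9.94, 8.30 and 10.2 CPM against 42.3, 46.2 and 52.1 CPM (−2.31, SE 0.11, adjusted p = 2.74e-06), and Ltbp2 (−2.24) was lower as well. The injury-associated glycoproteins Tnc (325 ± 1.53 against 588 ± 40.8 CPM), Postn (102 ± 1.72 against 295 ± 13.7 CPM) and Fn1 (2273 ± 41.7 against 3457 ± 281 CPM) were all lower in the wound cultures than in MEF. With trends removed Fn1 turned to 0.59, Tnc turned to 0.13 and Postn stood at −2.15.

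Among matrix proteases and their inhibitors 6 were at least 2-fold higher and 17 lower of 35 tested (17.1% and 48.6%), and 6 and 15 with trends removed, so this balance changed little. Mmp15 (−3.21), Mmp13 (−3.20), Mmp17 (−3.20) and Serpine2 (27.9 ± 0.272 against 249 ± 9.78 CPM, −3.15) were lower. Inhibitors stood on both sides, since Serpine2, among the lower genes, is itself an inhibitor of serine proteases. Timp1, an inhibitor of matrix metalloproteinases, stood at 326, 332 and 330.4 against 67.4, 77.4 and 99.0 CPM (2.02, adjusted p = 1.23e-05). Serpinb2 (2.15) was also higher, but stood at 0.43 with trends removed, and Mmp19 (1.55) was higher under both. The call of Mmp19, whose MEF replicates stood at 1.52, 8.30 and 8.39 CPM, was lost without any 1 wound culture (1.53 to 1.56, adjusted p from 0.0706 to 0.0784).

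Markers of the fibroblast state were checked against the labels. All 12 fibroblast markers were tested, and Col1a1, Col1a2, Vim and Fn1 stood at 1804 CPM or more in every culture of both groups. The dermal proteoglycan gene Lum was the exception and reached at most 0.217 CPM in any culture, with its only MEF counts in replicate 1. Of the 12, 1 was higher, 10 were lower and 1 did not pass the test, and 6 were at least 2-fold lower. With trends removed 1 was higher and 4 were lower by at least 2-fold. Pdgfra, the receptor that defines many fibroblast lineages, stood at 57.0, 59.5 and 58.6 CPM in wound cultures against 145, 140.3 and 124 CPM in MEF (−1.22, SE 0.066, adjusted p = 4.47e-06). Thy1 (49.3 ± 3.54 against 99.2 ± 4.76 CPM) and Pdgfrb (145 ± 2.20 against 243 ± 15.1 CPM, −0.74, but 0.18 with trends removed) were also lower.

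The list of contractile and myofibroblast genes was split, with 8 at least 2-fold higher and 10 lower of 34 tested (23.5% and 29.4%, 7 and 7 with trends removed). It also holds markers such as Fap and Pdpn that are not contractile genes, so these counts are not of contractile genes alone. Smooth muscle actin (Acta2), the textbook myofibroblast marker, was lower in the wound-derived cultures at 1580.2, 1653 and 1573 CPM against 4455, 4297 and 3458 CPM, a log2 fold change of −1.34 (SE 0.097, adjusted p = 1.60e-05) and of −1.94 with trends removed. Cald1 (caldesmon), an actin-binding partner of the same fibres, ran the other way at 1283, 1282 and 1297 CPM against 346, 375 and 455 CPM (1.72, adjusted p = 6.22e-06). The desmin gene Des stood at 5.46 ± 0.224 against 0.335 ± 0.0880 CPM, the podoplanin gene Pdpn at 355, 354 and 351 against 78.0, 78.7 and 72.3 CPM, and Fap, a serine protease of activated fibroblasts, at 1.496 ± 0.270 against 0.0405 ± 0.0701 CPM. Mylk, the kinase that activates smooth muscle myosin, was lower at 0.802, 0.772 and 0.960 CPM against 17.3, 14.5 and 14.0 CPM (−4.17, adjusted p = 7.44e-07). Srf, the transcription factor of contractile genes, was lower too (−1.90, −1.0 with trends removed), as were Lmod1 (−2.47) and Lrrc17 (−4.42). Abundant genes of the list also stood on both sides in raw counts. Tagln (161363, 144777 and 147087 against 45771, 50462 and 68110) and Tpm1 (143554, 127415 and 128965 against 29603, 32722 and 57839) were higher in wound cultures. Actn4 (49482, 44902 and 46776 against 104752, 109099 and 125157) and Flna were lower. These genes were added after their values had been seen and are not among the named genes counted below.

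Dermal and adventitial markers were 11 higher and 12 lower by at least 2-fold of 39 tested (28.2% and 30.8%), and 9 and 13 with trends removed. Crabp1, a retinoic acid binding protein of upper dermal fibroblasts, stood at 302, 312 and 293 CPM in wound cultures against 33.9, 31.7 and 27.2 CPM in MEF (3.29, SE 0.093, adjusted p = 5.04e-07). Sfrp1, a secreted Wnt antagonist, stood at 51.9, 49.9 and 50.99 against 1.495, 0.928 and 1.23 CPM (5.39, adjusted p = 5.11e-07) and the TGF-beta co-receptor endoglin (Eng) at 120.5, 122.5 and 120.2 against 7.91, 7.98 and 5.63 CPM (4.08, adjusted p = 8.67e-07). Dpt, a dermal matrix protein, was higher (2.03). Cd34, a surface sialomucin of adventitial fibroblasts, was at 64.7, 65.0 and 68.4 CPM in wound cultures and 641, 717 and 855 CPM in MEF (−3.48, SE 0.11, adjusted p = 7.24e-07). Plac8 (5.27 ± 0.550 against 163 ± 16.4 CPM), the Wnt agonist Rspo3 (0.276 ± 0.0219 against 14.2 ± 1.02 CPM) and the chemokine scavenger Ackr3 (−2.45) were lower as well.

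Chemokine and cytokine genes were more often higher than lower in the wound-derived cultures. Of 58 chemokines and inflammatory cytokines listed 38 were tested, and 19 were at least 2-fold higher (50.0%, against 21.9% of all genes) and 7 lower (18.4%), or 16 and 8 with trends removed, with a median log2 fold change of 0.95 and of 0.76 with trends removed. Il1rn, the antagonist of the interleukin-1 receptor, stood at 38.9, 40.0 and 41.0 CPM against 0.349, 0.512 and 0.662 CPM (6.27, SE 0.18, adjusted p = 5.11e-07). The monocyte chemoattractants Ccl7 (55.4, 52.3 and 54.8 against 2.38, 1.91 and 2.47 CPM), Ccl9 (23.1 ± 0.481 against 1.11 ± 0.252 CPM) and Ccl2 (131, 135 and 132 against 60.2, 61.3 and 60.1 CPM) were higher, and so was the neutrophil chemoattractant Cxcl5 (8.23 ± 0.319 CPM against 6 counts in 1 MEF culture). The log2 fold changes were 4.58 for Ccl7, 4.39 for Ccl9 and 1.13 for Ccl2, the last of which turned to −0.52 with trends removed. Il6, which encodes the cytokine interleukin-6, did not overlap between the groups, at 2.20, 1.86 and 2.01 against 0.154, 0.166 and 0.188 CPM (3.56, adjusted p = 3.80e-06).

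A smaller set ran against that direction. Ccl5, a T-cell chemoattractant, stood at 12.7, 12.5 and 11.6 CPM in wound cultures and 115, 121 and 102 CPM in MEF (−3.20, SE 0.080, adjusted p = 3.99e-07). Ptges, which makes prostaglandin E, fell from 52.1, 53.8 and 55.0 CPM to 1.43, 1.10 and 1.01 CPM (−5.50, adjusted p = 3.59e-07). Cxcl12, a chemokine of stromal fibroblasts, was under 2-fold lower (367 ± 3.69 against 704 ± 53.7 CPM). The macrophage growth factor gene Csf1 did not pass the test (295 ± 5.72 against 319.8 ± 22.9 CPM, adjusted p = 0.123). Csf1 was called lower without MEF replicate 2 (−0.17, adjusted p = 0.0271) and with the 9 WT cultures in one model (−0.13). With trends removed Csf1 was called higher (0.55, adjusted p = 0.00023). Tnfrsf11b, the decoy receptor for RANK ligand, and Il34 were lower (−3.99 and −2.51). In the immune lists beside these, complement genes were 3 higher and 4 lower by at least 2-fold of 15 tested (3 and 6 with trends removed), with C4b higher (1.47 ± 0.238 against 0.374 ± 0.221 CPM) and the central component C3 (0.281 ± 0.0589 against 3.17 ± 0.204 CPM) lower. MHC class I and antigen presentation genes were 4 higher and 6 lower of 24 (3 and 7 with trends removed), with the proteasome activator Psme2 at 102 ± 2.94 against 15.1 ± 3.80 CPM and the class I gene H2-Q7 at 6.54 ± 1.47 against 44.9 ± 12.9 CPM, the last counted beside close relatives that share its sequence.

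Interferon-stimulated genes, which cells switch on against viruses, pointed mostly one way. Of 53 tested, 44 were higher, 4 were lower and 5 did not pass the test, and 27 were at least 2-fold higher (50.9%) against 2 lower (3.77%). The median log2 fold change was 1.001, and with trends removed it was 0.73 with 20 higher and 3 lower by at least 2-fold. The antiviral synthetase Oas1a stood at 41.2, 40.3 and 42.7 CPM in the wound cultures and 3.87, 3.93 and 4.72 CPM in MEF (3.31, SE 0.091, adjusted p = 4.97e-07). Isg15, a ubiquitin-like modifier, stood at 101, 101 and 96.6 against 35.9, 36.2 and 43.9 CPM (1.36, adjusted p = 8.44e-06), and Bst2 (tetherin), which holds budding virus on the cell, at 175, 179 and 175 against 61.0, 70.0 and 64.5 CPM (1.44, adjusted p = 1.68e-06). The GTPases Ifi47 (14.0 ± 0.405 against 0.959 ± 0.251 CPM) and Iigp1 (14.7 ± 0.411 against 1.11 ± 0.188 CPM), Igtp (17.8 ± 0.112 against 5.90 ± 0.638 CPM) and Oas1g (17.8 ± 2.19 against 1.56 ± 0.282 CPM) were higher. Oas1a and Oas1g are close copies whose reads can be split between them. Oasl1 (20.7 ± 0.703 against 67.2 ± 5.58 CPM) was lower, and the inducer Irf1 was under 2-fold lower (−0.78). Isg15, Bst2, Igtp and Irf1 were chosen after their values had been seen, the first 3 for their promoters.

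Genes of this kind are known for a shared promoter element, the interferon-stimulated response element, in which GAAA is repeated at a spacing of 2 bases. The letters GAAA, any 2 bases and again GAAA, searched on both strands and allowed to overlap, were found in 25 of 49 RefSeq promoters (250 bases before to 50 after a start) of the 40 list genes with an entry, or 51%, against 3.44% of all 32851 promoters. They were in 13 of 21 promoters of the list genes that were at least 2-fold higher and in 12 of 27 of the other tested list genes. Over all genes at least 2-fold higher in the wound cultures, 4.11% of promoters held the letters, against 1.99% for those lower and 3.04% for all tested genes. The motif was chosen after the list had been seen, and a match is a description of letters. The 150 bases before the start are shown for 5 of the list genes that were higher, because the match lies in all of them, with every match in capitals (GRCm38.p6, strand of the gene, 5′ to 3′).
Isg15, chr4:156200819-156200968 (minus strand): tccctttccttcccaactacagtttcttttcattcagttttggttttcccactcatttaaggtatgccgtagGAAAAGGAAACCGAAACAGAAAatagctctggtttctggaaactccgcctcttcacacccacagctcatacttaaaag
Oas1a, chr5:120907526-120907675 (minus strand): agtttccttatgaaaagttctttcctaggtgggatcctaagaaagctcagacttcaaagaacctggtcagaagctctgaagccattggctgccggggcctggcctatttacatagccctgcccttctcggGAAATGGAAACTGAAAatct
Oas1g, chr5:120887614-120887763 (minus strand): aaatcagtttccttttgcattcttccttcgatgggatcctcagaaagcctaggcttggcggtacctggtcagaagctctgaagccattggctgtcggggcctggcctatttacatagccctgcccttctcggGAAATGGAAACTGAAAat
Igtp, chr11:58199406-58199555 (plus strand): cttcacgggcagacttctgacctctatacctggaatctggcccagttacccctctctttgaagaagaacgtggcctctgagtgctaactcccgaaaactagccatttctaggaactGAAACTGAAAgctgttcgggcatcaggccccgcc
Bst2, chr8:71537473-71537622 (minus strand): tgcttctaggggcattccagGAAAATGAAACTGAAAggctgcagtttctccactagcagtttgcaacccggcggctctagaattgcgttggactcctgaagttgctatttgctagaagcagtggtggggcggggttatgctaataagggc
The first match starts 78 bases before the start in Isg15, 20 in Oas1a, 18 in Oas1g, 34 in Igtp and 130 in Bst2. Overlapping matches number 3 in Isg15, 2 in Oas1a, Oas1g and Bst2, and 1 in Igtp.

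Ligands of the same signalling family often differed in opposite directions. Of the 13 tested ligands of the TGF-beta family 5 were at least 2-fold higher and 3 lower, the same numbers as with trends removed. Tgfb1 and Bmp4 did not pass the test (0.25, adjusted p = 0.0794, and adjusted p = 0.659), and Tgfb3 (−0.30, and 0.07 with trends removed) and Inhba (−0.39) were under 2-fold lower. Bmp4 was called without MEF replicate 1 (−0.96) and Tgfb1 without MEF replicate 3 (0.37), whereas Inhba was not called without any 1 culture other than MEF replicate 3 (−0.39 to −0.28). Some but not all other settings also called Tgfb1, among them trends removed (0.59). Tgfb2 was higher at 28.6, 25.9 and 28.8 against 7.31, 6.94 and 8.42 CPM (1.88, adjusted p = 2.80e-06). Bmp2, a bone morphogenetic protein, stood at 13.1, 12.1 and 12.9 CPM against 0.140, 0.249 and 0.419 CPM (5.51, SE 0.28, adjusted p = 3.58e-06), and the activin gene Inhbb at 95.2 ± 2.78 against 14.2 ± 1.21 CPM. Gdf10 (0.195 ± 0.0864 against 3.46 ± 0.365 CPM) and Bmp6 (3.07 ± 0.113 against 12.9 ± 3.08 CPM) were lower. In the whole TGF-beta and BMP list, 8 were higher and 14 lower by at least 2-fold of 49 (9 and 12 with trends removed), among the lower ones the antagonist Chrdl1 (−2.94) and the signal transducer Smad9 (−3.61).

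Of 13 tested Wnt ligands 7 were at least 2-fold higher and 3 lower, and 8 and 2 with trends removed. Wnt7b stood at 46.9, 48.2 and 49.8 CPM in wound cultures against 0.992, 1.05 and 1.15 CPM in MEF (5.50, SE 0.075, adjusted p = 9.09e-08), while its close relative Wnt7a ran the other way at 0.0758, 0.0613 and 0.0915 against 18.7, 18.6 and 14.6 CPM (−7.79, SE 0.19, adjusted p = 3.99e-07). Wnt2b was higher (4.78 ± 0.142 against 0.122 ± 0.0338 CPM) and Wnt5a, a ligand of limb and dermal mesenchyme, was lower (17.5, 16.7 and 16.9 against 46.4, 57.4 and 44.2 CPM, −1.53, adjusted p = 1.16e-05). Wnt3, Wnt4, Wnt6, Wnt10a and Wnt10b were also at least 2-fold higher and Wnt11 lower, at no more than 1.67 CPM in any culture. Wnt10b was not called without wound replicate 1 or 3 or MEF replicate 2 or 3 (1.91 to 2.48, adjusted p from 0.0535 to 0.117). Of the 47 genes of the Wnt list 12 were higher and 16 lower by at least 2-fold (25.5% and 34.0%, 16 and 10 with trends removed). The R-spondin receptor Lgr6 was higher (20.9 ± 1.63 against 1.18 ± 0.0366 CPM), and the feedback inhibitor Nkd1 (2 counts over the wound cultures against 3.91 ± 0.197 CPM) and the Wnt5a receptor Ror1 (−3.72) were lower.

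Kdr, the VEGF receptor best known from endothelial cells, separated the groups widely. It stood at 284, 289 and 289 CPM in wound cultures and at 3.55, 3.42 and 3.53 CPM in MEF, a log2 fold change of 6.36 (SE 0.054, adjusted p = 4.17e-08). The other 11 endothelial markers did not move with it as a whole. Egfl7 was under 2-fold higher (5.38 ± 0.355 against 3.28 ± 0.108 CPM). Tie1, Cldn5, Erg and Sox17 had no count in any of the 6 cultures, Pecam1 had none in the wound cultures, and Cdh5 (4 counts over the wound cultures against 1.12 ± 0.222 CPM) and Vwf (2 counts against 3.67 ± 0.591 CPM) were lower in wound cultures than in MEF. The VEGF ligands differed by under 2-fold in Vegfa (109 ± 3.603 against 59.4 ± 4.66 CPM, higher) and Vegfc (−0.86), by more in Vegfb (−1.15), and Vegfd did not pass the test (adjusted p = 0.553). With trends removed Vegfd was called lower (−0.76, adjusted p = 2.96e-05).

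The list of growth factor ligands and receptors had 11 higher and 17 lower of 49 by at least 2-fold, and 9 and 17 with trends removed. Of 30 tested growth factor ligands 9 were at least 2-fold higher and 7 lower, and 7 and 10 with trends removed. Fgf7, a mitogen that dermal fibroblasts supply to keratinocytes, was higher (146, 145 and 143 against 56.9, 59.4 and 56.7 CPM, 1.33, adjusted p = 7.00e-07), but turned to −0.30 with trends removed. Hgf (6.72 ± 0.953 against 0.598 ± 0.0552 CPM), Angpt1 (14.3 ± 0.693 against 1.32 ± 0.364 CPM), Angptl4 (16.9 ± 0.549 against 0.250 ± 0.113 CPM), Fgf9 (1.23 ± 0.201 against 0.0186 ± 0.0323 CPM), Fgf5 (3.12), Pdgfd (1.99) and the EGF receptor ligand Areg (8.05 ± 0.738 against 0.613 ± 0.165 CPM) were higher as well. Fgf10, a mesenchymal signal of limb and lung budding, was lower (31.8, 33.8 and 32.7 against 69.0, 65.8 and 63.8 CPM, −1.01, adjusted p = 2.87e-06). Pdgfb (−4.07), Fgfr2 (−2.65), Igfbp3 (−2.45) and Igf2r (−2.29, −1.22 with trends removed) were lower. In the Hedgehog and Notch list 10 of 24 were at least 2-fold lower (41.7%) and 2 higher, and with trends removed 4 were lower and 4 higher. Hhip, an antagonist of Hedgehog ligands, was higher (17.8 ± 0.654 against 1.37 ± 0.203 CPM), and the Hedgehog effector Gli1 (−2.59) and the Notch ligand Jag1 (3.57, 3.67 and 4.12 against 46.6, 47.2 and 41.5 CPM, −3.57) were lower. Among integrins and adhesion receptors, 8 were higher and 9 lower of 38 (9 and 6 with trends removed), with the laminin receptor Itga7 at 138, 140.1 and 134 against 6.97, 6.45 and 7.07 CPM (4.33, adjusted p = 8.63e-08), Itgb6 at 4.40 ± 0.433 CPM with no count in MEF, and the cadherins Cdh13 (−3.05) and Cdh2 (−1.66) lower.

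Embryonic and oncofetal growth genes were lower more often than higher in the wound cultures, with 8 against 5 by at least 2-fold of 23 tested (34.8% and 21.7%), and 7 against 4 with trends removed. Beside H19, Dlk1, an imprinted inhibitor of differentiation, stood at 67.4, 67.6 and 67.3 CPM against 312, 318 and 292 CPM (−2.19, SE 0.050, adjusted p = 3.43e-07). The imprinted factors Plagl1 (1.36 ± 0.262 against 30.9 ± 1.15 CPM) and Peg3 (25.8 ± 0.275 against 81.6 ± 3.91 CPM) were lower. The imprinted genes did not move as one. Igf2, which shares its locus with H19, was higher in the wound cultures (6.23, 12.7 and 6.88 against 2.43, 3.43 and 5.55 CPM, 1.17, adjusted p = 0.0259), but not without wound replicate 2 (0.78), MEF replicate 1 (0.93) or MEF replicate 2 (1.10, adjusted p from 0.0643 to 0.0798 over the 3). Higher too were Mest (2.0) and Snrpn (3.05). Phlda2 and Afp were higher at under 3 CPM.

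Cell-cycle genes had 7 higher and 6 lower by at least 2-fold of 40 tested (17.5% and 15%), and 4 and 5 with trends removed. Ccne2 (145 ± 5.92 against 17.8 ± 1.41 CPM, 3.02, but 1.27 with trends removed), Cdk1 (1.62) and Birc5 (1.72) were higher, whereas the G1 genes Ccnd1 (219.8 ± 5.202 against 649.5 ± 10.48 CPM, −1.56) and Cdk6 (−1.79) and the replication genes Mcm3 (−1.77) and Mcm5 (−1.32) were lower. Targets of p53 and CDK inhibitors were 10 higher and 4 lower of 31 (32.3% and 12.9%, 6 and 4 with trends removed). Btg2 (71.0, 67.7 and 71.3 against 9.69, 11.0 and 13.3 CPM, 2.62, adjusted p = 1.99e-06), Perp, Eda2r and Ccng1 led the higher genes, and Cdkn2a, the Ink4a/Arf gene, was lower (165 ± 3.66 against 374 ± 14.7 CPM, −1.18).

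Widely used reference genes were not level. Of 16 tested, 3 were higher and 4 lower by at least 2-fold, as many as with trends removed. Ppia (2931, 2887 and 2884 against 512, 553 and 751 CPM), Hprt (2.09, but 0.19 with trends removed) and Rpl13a (1.83) were higher, and Actb (4020.3, 4074 and 3948 against 10753, 10332 and 8478 CPM), Tubb5 (−1.15), Sdha (−1.11) and Polr2a (−1.58, −0.64 with trends removed) were lower. Genes of the sex chromosomes were also checked. Kdm5d (10.3 ± 0.268 against 10.6 ± 0.608 CPM), Ddx3y and Uty were present in all 6 cultures and Xist had at most 6 counts in any of them. Eif2s3y, a translation factor gene of the Y chromosome, differed at 24.9, 24.0 and 24.1 against 1.86, 2.05 and 1.96 CPM (3.64, adjusted p = 2.51e-07), while Ddx3y stood at 0.45 and Uty at 0.76, and with trends removed at −0.97 and −0.58.

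**Figure D4:**
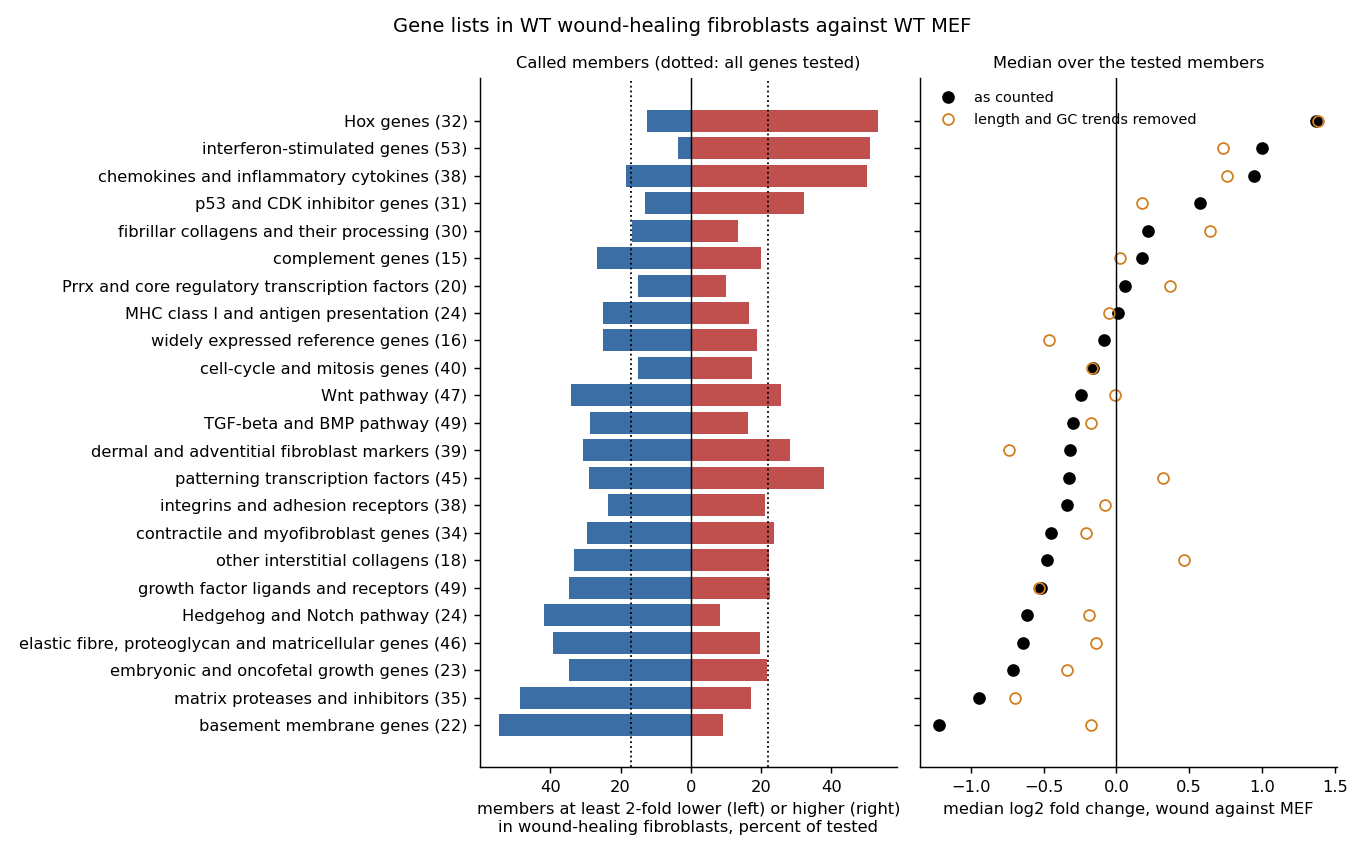
Share of tested members at least 2-fold higher (red) or lower (blue) in WT wound-healing fibroblasts for 23 gene lists, with the number tested in parentheses and the shares of all genes as dotted lines (left), and the median log2 fold change of each list as counted (filled) and with length and GC trends removed (open, right). Hox, interferon-stimulated and chemokine genes stay on the right under both treatments, whereas the median of the basement membrane list moves from −1.22 to −0.17.

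Markers of other cell types were checked next, and their part in the results above was not tested. The 3 tested of 14 leukocyte markers summed to 14.3 to 16.1 CPM in wound cultures and 15.5 to 18.2 CPM in MEF. Of the 14, Adgre1, Tyrobp, Cd3e and Ms4a1 had no count and Ptprc had 3 counts in 1 wound culture. The 10 tested of 22 keratinocyte and epithelial markers summed to 84.6 to 93.6 CPM against 27.3 to 29.7 CPM. Of the 22, Krt5, Krt1, Krt15, Dsg3 and Dsc3 had no count. Krt18, a keratin of simple epithelia, stood at 13.3, 13.2 and 11.7 CPM in wound cultures with none in MEF. Its usual partner Krt8 had at most 28 counts in any culture. Krt14, a basal keratin, stood at 5.93, 6.26 and 4.79 CPM in MEF and had 4 counts over the wound cultures. Of the mesothelial list, Msln was higher in wound cultures (77.1, 80.1 and 77.5 against 6.93, 6.50 and 6.61 CPM, 3.55, adjusted p = 1.07e-07) and Krt19 too (42.8 ± 1.86 against 11.9 ± 0.549 CPM), while Wt1 was lower and Upk3b stood at 0.934 ± 0.0747 against 1.49 ± 0.0862 CPM. The 3 tested of 11 skeletal muscle markers summed to 8.23 to 9.38 CPM against 0.540 to 0.755 CPM, through Pax3 and Des. The muscle factors Myf5, Myf6, Myog and Pax7 had no count, and the pericyte genes Rgs5 and Abcc9 had at most 10 counts in any culture. The pericyte gene Cspg4 was lower in wound cultures (27.7, 26.7 and 27.0 against 291, 272 and 241 CPM, −3.30). Melanocyte genes Sox10, Dct and Tyr and neural genes Sox2, Sox1 and Dcx had no count. Nor had cartilage and bone genes Acan, Sp7 and Ibsp, adipocyte genes Plin1 and Lep or the erythroid gene Hbb-bt. Other members of these lists had counts. The 6 tested of 12 neural markers summed to 120 to 124 CPM in wound cultures and 155 to 161 CPM in MEF. Of these 6, 1 was at least 2-fold higher and 2 were lower. The 5 tested of 12 cartilage and bone markers summed to 41.0 to 44.7 against 33.7 to 42.0 CPM. The 4 tested of 10 adipocyte markers summed to 22.2 to 23.1 against 77.0 to 85.8 CPM.

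The same pair of cell types was also sequenced after Prrx1 had been targeted, as 3 sgPrrx1 wound-healing fibroblast cultures and 3 sgPrrx1 MEF cultures (SG_PRRX1), which share no culture with the WT comparison. They may come from the same lines as the WT cultures, so agreement between the comparisons is not independent replication. Of 13789 genes tested there, 2778 (20.1%) were at least 2-fold higher in the wound cultures and 1746 (12.7%) at least 2-fold lower. With trends removed these became 2076 (15.1%) and 2275 (16.5%), so the balance turned. The overlaps that follow are as counted, and both comparisons carry the length and GC trends. Of the 3045 genes that were higher in WT, 1615 carried the same call in edited cultures, which is 53% of the WT calls and 58.1% of the edited calls, and 27 carried the opposite call. Of the 2375 lower genes 1105 carried the same call (46.5% and 63.3%) and 119 the opposite one. The posterior Hox genes repeated, with log2 fold changes in edited cultures of 4.73 for Hoxa10, 4.44 for Hoxa9 and 5.43 for Hoxc10, as did Prrx2 (−2.31), Kdr (9.29), Krt18 (adjusted p = 1.51e-06), Msx2 (3.67), Cd34 (−2.47) and Acta2 (−1.47). Interferon-stimulated genes were 36 higher and 1 lower by at least 2-fold of 50 tested in edited cultures, and chemokines and cytokines 18 and 4 of 34.

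Other genes changed less there. Wnt7b stood at 0.52 on the log2 scale in edited cultures, and Ccl9 (adjusted p = 0.662), Mylk (adjusted p = 0.982) and Angpt1 (adjusted p = 0.837) did not pass the test. A test of the difference between WT and edited cultures, an interaction term over 12 cultures, called all 4, which had been chosen for this difference, as it did 58.0% of the 14354 genes it covered. Among 192 genes that were named as the largest changes overall or of a list and were tested in both comparisons, 141 were called at least 2-fold in the same direction, 38 were not called at 2-fold and 13 were called in the opposite direction. The 13 were Smoc2, Lama4, Gdf10, C3, Cd55, Col27a1, Col8a2, Itga1, Mmp13, Serpine2 and Tnfrsf11b, which were lower in WT and higher in edited wound cultures, and Efemp1 and Inhbb, which went the other way. Igf2 (−6.14 in edited cultures) and Wnt11 (1.96), which belong to other parts of the rule, were also called in opposite directions. Prrx1 transcript remained in the edited cultures, at 120.3 ± 23.2 CPM in sgPrrx1 MEF and 64.9 ± 0.578 CPM in sgPrrx1 wound cultures.

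**Figure D5:**
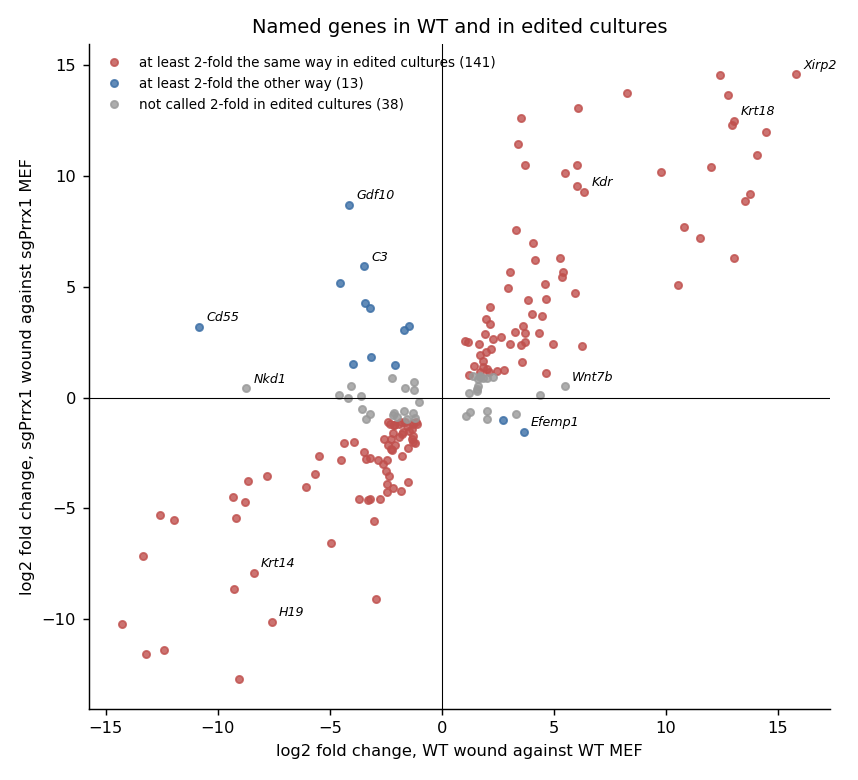
Log2 fold change of wound-healing fibroblasts against MEF in WT cultures (x axis) and in sgPrrx1 cultures (y axis), 1 point for each of 192 named genes, coloured by the call in edited cultures (red, same direction in 141, blue, opposite in 13, grey, not called at 2-fold in 38). Values beyond about 9 rest on a group with no or few counts and depend on the prior count of the model.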

How the data were processed

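RNA of cultured fibroblasts was sequenced from TruSeq v2 libraries, which do not mark strand, as paired reads of 100 bases. Per the labels and their processing notes the authors used Trimmomatic, STAR, HTSeq and mm10. The study's methods give versions 0.39, 2.7.7a (default settings) and 0.12.4, while the settings of HTSeq are not given in the sources used here. A batch correction with ComBat-seq is named after a step on human samples, and it is not stated whether it touched these counts. The deposited values were counts per gene without normalization, in 1 table per cell type. The MEF and wound tables were joined by gene name, leaving out 85 and 8 genes found in 1 table. Wound columns were assigned to the cell type by elimination.

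Only the 6 cultures entered the main model, a quasi-likelihood fit with edgeR 4.0.16 (R 4.3.3) after filterByExpr and TMM scaling, with Benjamini-Hochberg adjustment over all genes. The SE is the absolute log2 fold change divided by the square root of F. The model for edited cultures was fitted the same way. Depth was 81418082 to 91588690 counts for WT wound cultures and 73727411 to 88418420 for WT MEF, at which 3 counts over a group correspond to 0.0115 and 0.0128 CPM. Bounds and intervals cover counting error only. Transcript length and GC content came from Gencode M1 protein-coding transcripts (93.9% of tested genes). Promoters came from RefSeq (GRCm38.p6).

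Members and gene lists were chosen with earlier results of these data known. The genes named are Prrx1 and the core factors, the 12 highest and 12 lowest genes, up to 4 higher and 4 lower genes of each list, Hox and sex chromosome genes, ligands, collagens and 20 preset genes. Markers at or near 0 and the genes said so in the text were added, and some named genes are not reported here. Alternatives were DESeq2 1.42.0, other scalings and filters, a replicate block, larger models, thinning, counts divided by 2, glmTreat and each culture left out. On simulated data 86.5% of 200 genes changed by 1.5 on the log2 scale were called and 6.49% of calls fell on unchanged genes. There 200 of 13892 genes changed and no length or GC trend was put in, whereas 79.8% were called in the data. The simulation therefore cannot give the error rate of the calls reported here. Python 3.11.15, numpy 2.4.6, pandas 2.3.3 and matplotlib 3.10.9 were used.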

Additional observations from a re-analysis of the deposited data

Results flagged for a closer look

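The genes here were first picked from the named genes by their difference between wound-healing fibroblasts and MEF. In 15 of them the 2-fold calls were opposite in WT and in sgPrrx1 cultures, and the others changed less in sgPrrx1 cultures. They were kept if the interaction term of edgeR's quasi-likelihood model over 12 cultures called the difference between WT and sgPrrx1 cultures. That test used the same cultures as the picking. Its outcome for these genes was therefore largely fixed in advance and is not independent evidence. In all 14354 genes of that model 8323 differed at an adjusted p under 0.05. Values are the log2 fold change in edited cultures minus that in WT cultures. Among genes lower in WT and higher in edited wound-healing fibroblasts the difference was 9.44 for C3, 14.07 for Cd55, 4.75 for Col27a1, 4.78 for Col8a2 and 12.91 for Gdf10. It was 3.58 for Itga1, 7.73 for Lama4, 7.28 for Mmp13, 5.02 for Serpine2, 9.75 for Smoc2, 5.53 for Tnfrsf11b and 3.03 for Wnt11. Cd55 had no count in the WT wound cultures, so its difference depends on the prior count of the model. Among genes higher in WT and lower in edited wound-healing fibroblasts it was −5.15 for Efemp1, −3.74 for Inhbb and −7.28 for Igf2. For genes with a smaller change in edited cultures it was −4.95 for Wnt7b, −4.23 for Ccl9, −3.33 for Angpt1 and 4.21 for Mylk. The adjusted p was at most 0.0016 in each.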

How the results depend on the processing

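The counts of genes kept within 1.5 times of the values given under every alternative except the removal of length and GC trends, where the genes at least 2-fold higher fell to 2017 (and those at least 2-fold lower to 1886). That removal was chosen after seeing the data, and the cause of the change was not tested. With 1 culture left out the counts were 5317 to 5996 higher and 5055 to 5566 lower, and 2978 to 3270 and 2308 to 2453 at 2-fold. Of 234 called genes named in the text, 226 kept their call and direction under every alternative in which they were checked but that removal, and 213 with it. Named genes were not checked under thinning or under glmTreat's test against a 2-fold change. Of all 247 named genes, 196 were tested when each culture had to hold 10 counts, and 240 after counts were divided by 2. With the trends removed Ccl2 (−0.52), Col1a2 (0.61), Ddx3y (−0.97), Fgf7 (−0.30), Fn1 (0.59), Fosl2 (0.42), Pdgfrb (0.18) and Uty (−0.58) passed the test in the opposite direction, and 31 of 36 list medians moved by more than the spread between cultures. With the replicate number as a block the counts were 5495 higher and 5199 lower, 3003 and 2305 at 2-fold. Deviations of same-numbered cultures correlated at 0.0563, 0.185 and 0.0924, and each culture correlated best with its own number, a hint from the data and not from the design. Under the block Hoxa6, Hoxb13 and Inhba lost the call and Jund (3.65) gained it. A test against a 2-fold change called 2343 higher and 1765 lower genes. Depth limits genes near 3 counts in a group, whose folds are given as bounds.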
